A study of Mus musculus with 6 samples.

Results

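The genes described here are 10 genes of glucose uptake, glycolysis and lactate export, with the hypoxia-inducible transcription factor subunit Hif1a. They were picked by symbol from the table of gene counts: Slc2a1, Hk1, Hk2, Hk3, Pfkp, Pfkfb3, Pgk1, Ldha, Slc16a3 and Hif1a. All 10 were among the 17469 genes of the table, and all 10 passed the filter on low counts that left 12701 genes to be tested. RNA came from tdTomato+ cells, called osteoblast (OB) progenitors in the study, that were sorted by flow cytometry from cultures of adherent bone marrow cells (BMSCs) of untreated 6-month-old mice. Control mice (Ocn-Cre;Ai9) and APPswe mice (TgAPPswe;Ocn-Cre;Ai9) gave 3 libraries each. Both groups carry Cre recombinase driven by the osteocalcin promoter and Ai9, the allele that turns on tdTomato wherever Cre has acted, on a C57BL/6 background. The APPswe group also carries a transgene for human amyloid precursor protein with the Swedish mutation, held silent by a stop cassette until Cre cuts the cassette out. The study counts mice as n for the values it shows from these cells, but how mice map onto the libraries is not stated in the sources used here. The p-values therefore measure the spread between these libraries, which may be technical.

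Glycolysis splits glucose into pyruvate in the cytosol and yields ATP without oxygen. Glucose enters through carriers such as Slc2a1 (GLUT1), is trapped by a hexokinase, and is committed to breakdown by phosphofructokinase, whose allosteric activator is made by enzymes of the PFKFB family. Pgk1 catalyses an ATP-making step, Ldha turns pyruvate into lactate, and Slc16a3 (MCT4) carries lactate out of the cell. Hif1a encodes the oxygen-regulated subunit of HIF-1. While oxygen is present, prolyl hydroxylases (Egln genes) mark the HIF1A protein and the Vhl complex has it degraded, so HIF-1 activity is set largely at the protein level, which RNA-seq does not measure. HIF-1 binds a short core sequence, the hypoxia response element, near many genes of glucose uptake and glycolysis. Bone marrow stromal and osteoblast-lineage cells, as well as macrophages, are known to use glycolysis heavily.

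The promoters of several of these genes are shown to set the core letters of that element beside transcripts that differed between genotypes and transcripts that did not pass the test. Each run is the 250 bases before a transcription start in RefSeq (GRCm38.p6), read 5′ to 3′ on the gene's strand. Capitals mark ACGTG or GCGTG on either strand (CACGT or CACGC on the strand shown), with overlapping matches joined into a single stretch. A match is a description of letters and not evidence of binding. Transcripts of the first 4 genes were higher in APPswe mice:
Slc16a3, chr11:120948817-120949066, + strand: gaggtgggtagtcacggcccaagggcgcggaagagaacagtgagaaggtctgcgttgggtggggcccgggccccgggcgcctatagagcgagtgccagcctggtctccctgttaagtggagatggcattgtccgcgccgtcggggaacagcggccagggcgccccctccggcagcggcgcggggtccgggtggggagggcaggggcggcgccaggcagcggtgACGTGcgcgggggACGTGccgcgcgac
Pfkfb3 (downstream start), chr2:11502091-11502340, - strand: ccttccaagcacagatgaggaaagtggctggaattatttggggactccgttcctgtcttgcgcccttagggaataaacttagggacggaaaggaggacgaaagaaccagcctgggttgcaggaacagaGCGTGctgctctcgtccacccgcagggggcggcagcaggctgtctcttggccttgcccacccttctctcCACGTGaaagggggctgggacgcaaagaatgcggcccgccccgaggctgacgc
Pfkfb3 (upstream start), chr2:11553930-11554179, - strand: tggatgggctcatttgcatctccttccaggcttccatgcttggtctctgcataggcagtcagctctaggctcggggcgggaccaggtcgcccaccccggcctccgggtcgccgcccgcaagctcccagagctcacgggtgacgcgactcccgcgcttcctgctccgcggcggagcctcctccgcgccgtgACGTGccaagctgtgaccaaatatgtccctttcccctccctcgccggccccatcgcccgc
Pgk1, chrX:106186850-106187099, + strand: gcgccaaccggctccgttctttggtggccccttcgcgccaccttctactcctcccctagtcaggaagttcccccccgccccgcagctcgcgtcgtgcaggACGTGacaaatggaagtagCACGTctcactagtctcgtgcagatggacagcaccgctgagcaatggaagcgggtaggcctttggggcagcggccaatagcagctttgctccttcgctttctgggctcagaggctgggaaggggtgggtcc
Ldha (upstream start), chr7:46845554-46845803, + strand: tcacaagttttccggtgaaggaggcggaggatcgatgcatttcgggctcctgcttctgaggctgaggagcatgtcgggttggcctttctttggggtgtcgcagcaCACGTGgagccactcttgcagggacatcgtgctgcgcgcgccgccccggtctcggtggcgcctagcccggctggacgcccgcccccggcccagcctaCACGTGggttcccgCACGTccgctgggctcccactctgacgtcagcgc
Ldha (downstream start), chr7:46846832-46847081, + strand: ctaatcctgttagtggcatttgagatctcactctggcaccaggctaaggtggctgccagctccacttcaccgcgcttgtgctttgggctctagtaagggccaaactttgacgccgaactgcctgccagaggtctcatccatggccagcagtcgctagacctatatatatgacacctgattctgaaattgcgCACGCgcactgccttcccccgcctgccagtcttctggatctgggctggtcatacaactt
The next are Hk3, the most abundant hexokinase transcript here, and Hk1 (both listed starts) and Pfkp, which did not pass the test between genotypes:
Hk3, chr13:55021386-55021635, - strand: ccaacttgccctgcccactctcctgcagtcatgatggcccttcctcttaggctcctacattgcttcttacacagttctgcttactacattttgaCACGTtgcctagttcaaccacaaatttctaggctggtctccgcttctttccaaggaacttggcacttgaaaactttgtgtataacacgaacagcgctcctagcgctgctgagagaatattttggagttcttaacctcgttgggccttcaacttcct
Hk1 (downstream start), chr10:62340422-62340671, - strand: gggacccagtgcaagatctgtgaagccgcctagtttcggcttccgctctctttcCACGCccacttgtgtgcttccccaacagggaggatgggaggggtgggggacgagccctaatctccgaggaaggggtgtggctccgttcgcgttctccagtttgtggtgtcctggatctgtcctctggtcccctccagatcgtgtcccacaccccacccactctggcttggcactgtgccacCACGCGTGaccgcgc
Hk1 (upstream start), chr10:62379909-62380158, - strand: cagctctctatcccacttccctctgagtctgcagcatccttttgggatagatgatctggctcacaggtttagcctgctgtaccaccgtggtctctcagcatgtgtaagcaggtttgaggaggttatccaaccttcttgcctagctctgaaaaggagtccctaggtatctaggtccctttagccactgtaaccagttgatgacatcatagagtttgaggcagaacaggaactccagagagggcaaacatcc
Pfkp, chr13:6648772-6649021, - strand: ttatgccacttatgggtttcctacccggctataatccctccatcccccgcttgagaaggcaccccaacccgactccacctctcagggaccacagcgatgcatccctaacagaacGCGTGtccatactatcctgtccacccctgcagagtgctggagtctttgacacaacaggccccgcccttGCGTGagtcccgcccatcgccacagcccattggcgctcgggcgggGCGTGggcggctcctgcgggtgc

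All 10 genes matched the promoter table, with 13 listed starts. Of these 13 windows, 12 held at least 1 stretch and 9 held at least 2. Among the 12918 windows of all tested genes, 54.6% held at least 1 and 23.1% at least 2. Ldha and Pfkp each had 3 stretches at 1 start, and Ldha had 1 at its other start. Pfkfb3 had 2 at its downstream start and 1 at its upstream start. The 3 Ldha stretches began 145, 48 and 34 bases before the start and those of Pfkp 136, 68 and 23 bases before it. Pgk1 and Slc16a3 had 2 each, the latter 27 and 14 bases before the start. Hk3 had 1, and the upstream start of Hk1 was the only window with 0. The number of stretches did not follow the change in transcript level gene by gene, since Pfkp had as many as Ldha.

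The genes lie on 9 chromosomes and are not a cluster. In GRCm38, Slc16a3 spans chr11:120948484-120959000, Pfkfb3 chr2:11471430-11554071, Pgk1 chrX:106187100-106203699, Ldha chr7:46842274-46855627, Slc2a1 chr4:119108745-119137330 and Hk2 chr6:82725025-82774454. Hif1a spans chr12:73901324-73947554 and Hk1 chr10:62268855-62379920. Hk3 (chr13:55005985-55021475) and Pfkp (chr13:6579874-6649060) share a chromosome. Exons of Hk3 overlap those of Unc5a on the other strand, which had 21 to 49 counts per library against 3706 to 8321 for Hk3. Exons of Pfkp overlap those of Pitrm1, also on the other strand, which had 1143 to 1785 counts against 1008 to 1135 for Pfkp. Hif1a, Slc2a1 and Hk1 overlap antisense transcripts, and Hif1a also overlaps Gm49321 on its own strand. Whether strand was used in counting is not given in the sources used here, so reads in the shared stretches cannot be assigned with certainty.

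The libraries held 19340810 to 19801060 estimated counts in control and 21677461 to 22037840 in APPswe mice. For the median gene, the squared difference between libraries was 2.55 to 6.35 times that of sampling noise within a genotype and 50.4 to 63.3 times between genotypes. App had an FPKM (fragments scaled by transcript length and by all mapped fragments) of 274.9 to 281.1 in control and 325.2 to 332.9 in APPswe libraries, in a single entry that does not separate human from mouse transcripts. Markers of mature osteoblasts and osteocytes were low. In any library the FPKM was at most 1.25 for Bglap and 2.32 for Bglap2 (both osteocalcin), 1.43 for Ibsp and 0.05 for Dmp1. Collagen transcripts were present, at 26.9 to 45.7 FPKM for Col1a1 and 34.05 to 56.5 for Col1a2. Up- and down-regulated are used for the marker lists as defined below. Of all genes tested, 8.90% were up- and 9.20% down-regulated. The summed FPKM of 18 stromal and osteoblast-lineage markers was 161.5 to 177.1 in control and 131.4 to 211.5 in APPswe libraries. Of the 16 tested, 2 were up-regulated (Dcn and Lum) and 0 down-regulated. The summed FPKM of 15 myeloid markers was 18571 to 19408 in control and 15545 to 19341 in APPswe libraries. Of these 15, 4 were up-regulated, among them Adgre1 and Itgam, and 5 were down-regulated, among them Csf1r and Mrc1, all named after their values were seen. The summed FPKM of 8 osteoclast markers was 37.1 to 58.6 in control and 103.7 to 225.9 in APPswe libraries, a rise that lay mostly in Mmp9 (1.31 to 2.74 and 69.29 to 169.19). Of the 6 tested, 3 were up-regulated (Mmp9, Acp5 and Ocstamp), while Atp6v0d2 was down-regulated (log2 fold change -2.38) and Ctsk fell on the adjusted p. That of 6 megakaryocyte markers was 527.8 to 638.0 and 117.3 to 266.2, nearly all of it Pf4, with 2 of 4 tested down-regulated. The neutrophil list summed to 13.6 to 54.3 and 19.1 to 52.2, and the lymphocyte, erythroid, endothelial and adipocyte lists each to less than 7 in every library. The part of these other cell types in the results below was not tested, and libraries are named by genotype. In bulk RNA, fewer cells of a type and less RNA per cell cannot be told apart.

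Most of the 10 genes were higher in APPswe libraries, and none was called lower. Up- or down-regulated means a Benjamini-Hochberg adjusted p (edgeR) of no more than 0.05 together with a change of 1 or more on the log2 scale. By this rule 6 of the 10 were up-regulated, namely Pfkfb3, Slc16a3, Slc2a1, Pgk1, Hk3 and Hif1a, against 8.90% of all genes tested. None of the 10 was down-regulated, against 9.20% of all genes. On the adjusted p alone 8 of the 10 rose, with Hk2 and Ldha added, against 32.5% of all genes that rose and 31.5% that fell. The median log2 fold change of the 10 was 1.16, with a range of 0.08 to 2.10, against -0.0192 over all genes tested. Of the 6 calls, 4 were of genes with log2 fold changes between 1.16 and 1.23, close to the threshold, and were lost under at least 1 alternative. Scaled by library size alone, 3 genes passed the fold threshold (Pfkfb3, Slc16a3 and Slc2a1), where 6.66% of all genes were called higher and 13.6% lower. With limma on log2 FPKM 2 did (Pfkfb3 and Slc16a3), where 4.67% were called higher and 6.65% lower at a pseudocount of 1, and 6.39% and 11.9% at 0.1. The 8 genes on the adjusted p rose under both alternatives.

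**Figure D1:**
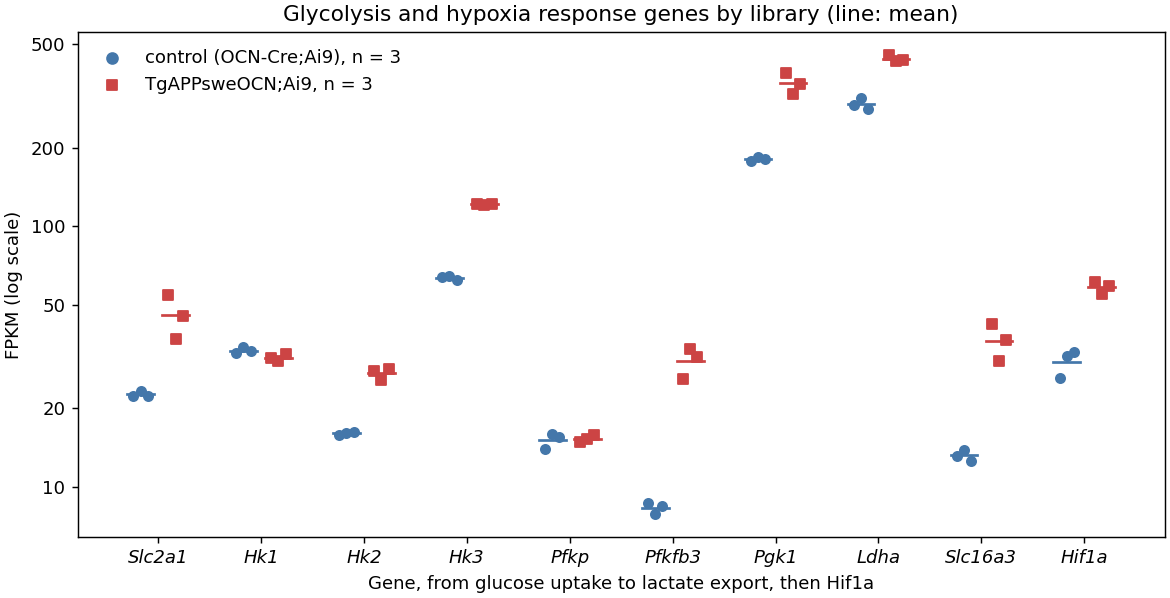
FPKM of each gene (log axis) in the 3 control libraries (blue circles) and the 3 APPswe libraries (red squares), with horizontal lines at the means. The genotypes do not overlap for any gene except Pfkp; the APPswe libraries are higher for 8 genes and slightly lower for Hk1.

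FPKM shows levels per transcript length and is not corrected by the TMM factors used in the test. The log2 ratio of FPKM lay 0.215 below the edgeR log2 fold change for the median gene. On the FPKM scale all APPswe libraries lay above all control libraries for 8 of the 10 genes and for 24.0% of the genes tested. They lay below for 1 of the 10, Hk1, and for 48.3% of the genes tested.

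For glucose uptake, Slc2a1 was up-regulated. Its FPKM was 22.31, 23.38 and 22.26 in control and 54.36, 36.89 and 45.38 in APPswe libraries. The control libraries lay close together, whereas the APPswe libraries spread over a wider range, all above control. The log2 fold change was 1.23 (SE 0.136, adjusted p = 7.23e-05), or 2.34-fold. Slc2a1 was already the carrier with the highest FPKM of the 4 compared, with a share of 41.1% ± 2.13 (SD, n = 3) of the FPKM summed over Slc2a1, Slc2a3, Slc2a6 and Slc2a8. In APPswe libraries its share was 53.7% ± 1.13, and the genotypes did not overlap (two-sided exact permutation test, p = 0.1, adjusted 0.114 over 8 shares; with 3 libraries per genotype no smaller p than 0.1 can be reached).

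Of the other glucose carriers and PFKFB enzymes, 10 were tested, of which 1 was up-regulated and 1 down-regulated (8.90% and 9.20% of all genes), while 3 rose and 4 fell on the adjusted p (32.5% and 31.5% of all genes), with a median log2 fold change of -0.257. Slc2a6, a carrier found on lysosomal membranes, rose with an FPKM of 11.41, 10.41 and 9.77 in control and 35.74, 22.58 and 29.47 in APPswe libraries (log2 fold change 1.70). Slc2a8 fell from 21.36, 19.12 and 18.42 to 7.40, 8.63 and 9.35 (adjusted p = 3.17e-05), at the edge of the fold threshold, and was no longer called under 5 of the 15 alternatives, where its log2 fold change was as small as -0.92. Slc2a3 (GLUT3), a high-affinity carrier, was at an FPKM of 1.08 to 2.69 and had a log2 fold change of -0.70 (adjusted p = 0.00313). The log2 ratio of Slc2a1 to Slc2a3 was 3.24 ± 0.185 in control and 5.14 ± 0.474 in APPswe libraries, a difference of 1.90 (exact permutation p = 0.1, also after adjustment over 8 ratios).

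At the hexokinase step the 3 genes behaved differently. Hk3, the hexokinase typical of myeloid cells, had the highest level, with an FPKM of 63.89, 64.26 and 62.07 in control and 121.81, 120.20 and 121.48 in APPswe libraries. The values within each genotype were nearly equal, and the log2 fold change was 1.16 (SE 0.0519, adjusted p = 4.52e-07). Hk2, the inducible hexokinase that can bind mitochondria, had an FPKM of 15.82, 16.11 and 16.18 in control and 27.74, 25.80 and 28.20 in APPswe libraries. It rose by a log2 fold change of 0.98 (SE 0.0604, adjusted p = 2.57e-06), just under the fold threshold. Without APPswe replicate 2 its log2 fold change was 1.04 and it was called, which brought the up-regulated genes to 7. Hk1, the broadly expressed housekeeping hexokinase, had an FPKM of 32.59, 34.33 and 33.06 in control and 31.31, 30.27 and 32.23 in APPswe libraries. Its log2 fold change was 0.13 with TMM scaling (SE 0.0542, adjusted p = 0.0634) and -0.09 with library size alone, so no direction is given for it. Without APPswe replicate 2 it was 0.17 and passed the adjusted p.

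The make-up of the hexokinase transcripts therefore differed between genotypes, a comparison that does not depend on scaling between libraries. The share of Hk1 was 29.6% ± 0.473 in control and 17.4% ± 0.283 in APPswe libraries. That of Hk3 was 56.2% ± 0.591 and 67.4% ± 0.710. Hk2 had shares of 14.2% ± 0.272 and 15.2% ± 0.460, and its libraries also did not overlap between genotypes (exact permutation p = 0.1 for each of the 3, adjusted 0.114). The log2 ratio of Hk1 to Hk3 was 1.03 lower in APPswe libraries and that of Hk1 to Hk2 0.86 lower, and Hk2 to Hk3 differed by -0.17 (exact permutation p = 0.1 each). Hk3 moved beside myeloid markers that changed in both directions, with a log2 fold change of 1.89 for Adgre1 and -1.49 for Csf1r, and their part in the result was not tested.

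**Figure D2:**
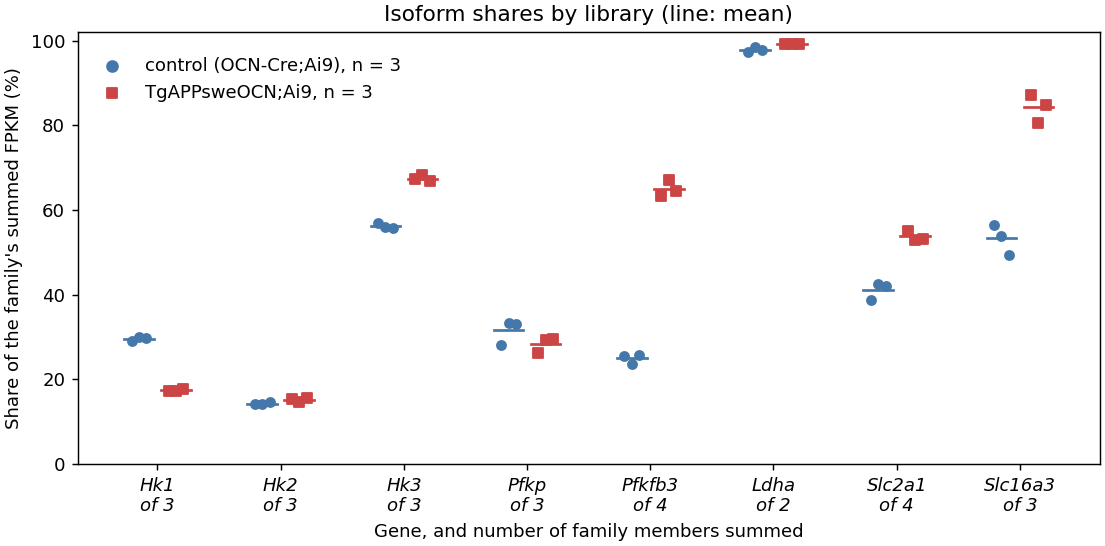
Share of each isoform in the summed FPKM of its family (percent) by library, for control (blue circles) and APPswe (red squares), with lines at the means; the number under each gene is the number of family members summed. Pfkfb3 rises from 24.9% to 65.0% and Slc16a3 from 53.3% to 84.2%, Hk1 drops from 29.6% to 17.4%, and only Pfkp overlaps between genotypes.

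Phosphofructokinase itself and the enzyme that makes its activator differed in response. Pfkp, the platelet-type subunit, had an FPKM of 14.02, 15.97 and 15.56 in control and 14.82, 15.20 and 15.76 in APPswe libraries. The genotypes overlapped, and the log2 fold change was 0.08 (SE 0.0623, adjusted p = 0.285) with TMM scaling and -0.13 with library size alone. Its counts were fractional in all 6 libraries, as were those of Pitrm1, which overlaps it on the other strand. Pitrm1 rose (log2 fold change 0.60, adjusted p = 5.2e-05), and how reads were divided between these genes was not tested. Pfkl, the liver-type subunit and the most abundant in these cells, rose with a log2 fold change of 0.66 (adjusted p = 0.000247), and Pfkm, the muscle type, fell (log2 fold change -0.55, adjusted p = 0.000506). Pfkp held 31.6% ± 2.90 of the summed FPKM of the 3 subunits in control and 28.3% ± 1.86 in APPswe libraries, with overlap (exact permutation p = 0.3). Its log2 ratio to Pfkl was 0.43 lower in APPswe libraries, without overlap (exact permutation p = 0.1).

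Pfkfb3, which makes the activator fructose 2,6-bisphosphate with little of the reverse activity, had the highest fold change of the 10 genes. Its FPKM was 8.68, 7.89 and 8.43 in control and 25.88, 33.66 and 31.46 in APPswe libraries. Every APPswe library was well above every control library, and the log2 fold change of 2.10 (SE 0.0941, adjusted p = 4.52e-07) is 4.29-fold. The other members of its family were not raised. Pfkfb2 had a log2 fold change of -0.68 (adjusted p = 0.000107), Pfkfb4 of -0.32 (adjusted p = 0.00274) and Pfkfb1, at an FPKM of 0.77 to 1.31, of -0.06 (adjusted p = 0.825). In control libraries Pfkfb4 had the highest FPKM of the family, at 16.24 to 17.83, and in APPswe libraries Pfkfb3 did. The share of Pfkfb3 was 24.9% ± 1.12 in control and 65.0% ± 1.87 in APPswe libraries (exact permutation p = 0.1, adjusted 0.114).

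In the ATP-yielding part of the pathway, Pgk1 was up-regulated. Its FPKM was 177.02, 184.28 and 181.05 in control and 387.55, 322.14 and 350.53 in APPswe libraries, and the lowest APPswe library exceeded the highest control library by a wide margin. The log2 fold change was 1.18 (SE 0.0825, adjusted p = 5.02e-06), or 2.27-fold. Of the other glycolytic enzymes, 20 were tested, of which 12 rose and 5 fell on the adjusted p (32.5% and 31.5% of all genes), with 1 and 2 past the fold threshold (8.90% and 9.20% of all genes) and a median log2 fold change of 0.498. Bpgm, which makes 2,3-bisphosphoglycerate, was the up-regulated one, with an FPKM of 5.16, 5.62 and 4.49 in control and 14.44, 10.51 and 12.48 in APPswe libraries (log2 fold change 1.55). Those down-regulated were isoforms of low abundance here. Aldoc, the brain-type aldolase, had a highest FPKM of 13.26 in control and of 4.80 in APPswe libraries (log2 fold change -1.06, and -0.89 without control replicate 2). The sperm-specific Gapdhs was at or below 0.90 in every library, with 3 to 8 counts per APPswe library (log2 fold change -2.02). It lost its call under 1 of 14 alternatives, and its log2 fold change was as small as -0.57.

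The isoform with the highest mean FPKM was taken at each of 11 steps, from hexokinase to lactate dehydrogenase. Its transcript rose at all 11 on the adjusted p, as 32.5% of all genes did, with log2 fold changes from 0.18 to 1.18. Only Hk3 and Pgk1 passed the fold threshold, where 8.90% of all genes were up-regulated. Between them stood Gapdh, which oxidises glyceraldehyde 3-phosphate and had the highest FPKM of the enzymes, at 1522 to 1742 in control and 2338 to 2499 in APPswe libraries (log2 fold change 0.81). Aldoa and Pgam1 had log2 fold changes of 0.80 each, Eno1 of 0.71, Pkm of 0.63 and Tpi1 of 0.60, all named after their values were seen. Gpi1, which isomerises glucose 6-phosphate, had the smallest, at 0.18 (adjusted p = 0.0334), and -0.03 with library size alone, so that 10 of 11 were above 0 under that scaling.

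**Figure D3:**
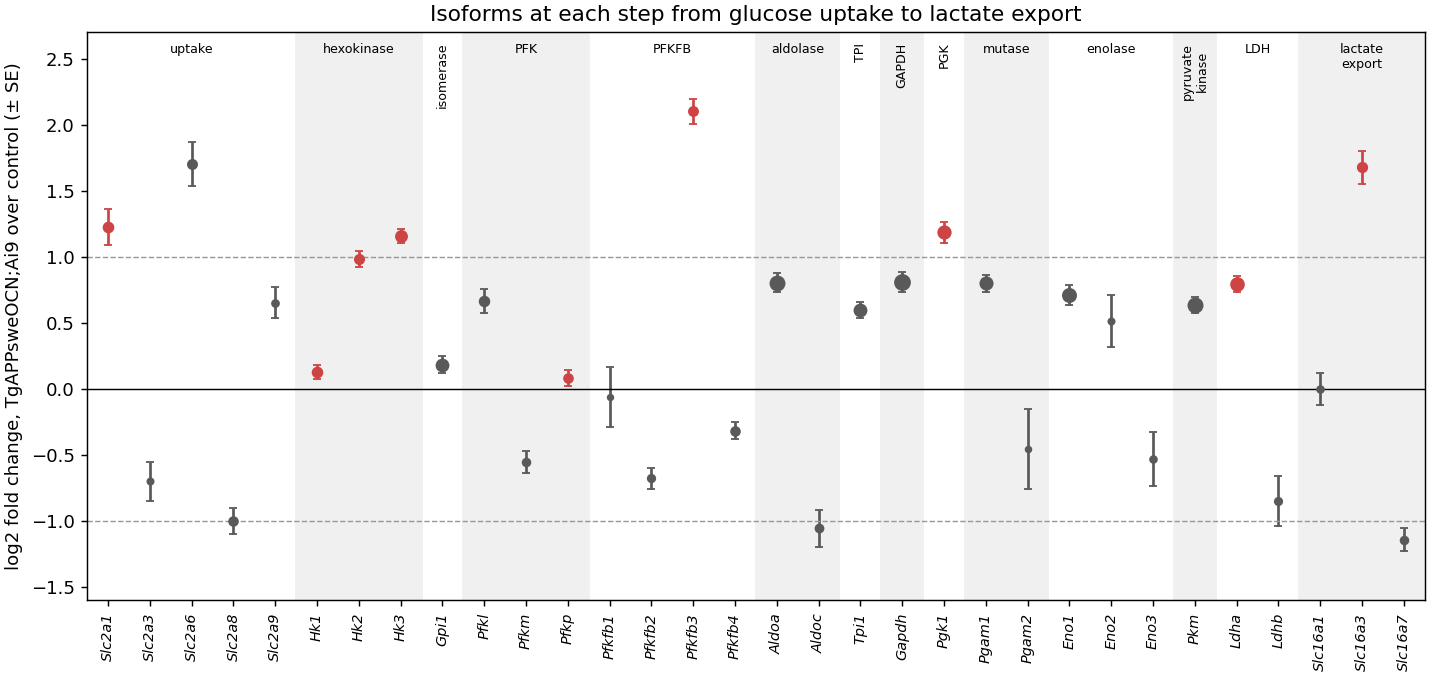
Log2 fold change between genotypes (APPswe over control, edgeR with TMM scaling, ± SE, n = 3 libraries each) of selected isoforms at each step from uptake to export. Points are larger for higher mean FPKM, red for genes among the 10 and grey for others, and dashed lines mark the fold threshold. The tested Gapdhs (-2.02), Slc2a10, Slc2a13 and Eno4 are not drawn. The most abundant isoforms of the 11 steps from hexokinase to lactate dehydrogenase lie above 0, from 0.18 for Gpi1 to 1.18 for Pgk1. Pfkfb3 lies at 2.10, while Pfkm, Pfkfb2, Aldoc, Ldhb and Slc16a7 are among those below 0.

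For lactate, Ldha had the highest level of the 10 genes in every library, with an FPKM of 290.82, 308.35 and 279.99 in control and 451.82, 429.61 and 431.59 in APPswe libraries. The log2 fold change was 0.79 (SE 0.0632, adjusted p = 1.05e-05), or 1.73-fold, under the fold threshold. Ldhb, the subunit that favours the reverse reaction, had an FPKM of 8.06, 4.90 and 6.46 in control and 3.08, 3.05 and 3.08 in APPswe libraries and fell (log2 fold change -0.85, adjusted p = 0.00401). Ldha was thus 97.8% ± 0.571 of the pair in control and 99.3% ± 0.0172 in APPswe libraries (exact permutation p = 0.1, adjusted 0.114). Their log2 ratio differed by 1.63 (exact permutation p = 0.1).

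Slc16a3, the carrier for lactate export, was up-regulated. Its FPKM was 13.19, 13.83 and 12.58 in control and 42.17, 30.38 and 36.45 in APPswe libraries. All APPswe libraries lay above all control libraries, with replicate 2 the lowest of them, and the log2 fold change was 1.68 (SE 0.125, adjusted p = 7.24e-06), or 3.20-fold. Among the other monocarboxylate carriers and their chaperones, 4 were tested, and 1 rose and 2 fell on the adjusted p, where 32.5% and 31.5% of all genes did, with a median log2 fold change of -0.572. Slc16a1 (MCT1), which carries lactate in either direction, had a log2 fold change of -0.0017 (SE 0.122, adjusted p = 0.992) at an FPKM of 2.35 to 3.41. Slc16a7 (MCT2), which has a high affinity for lactate, fell (log2 fold change -1.14, adjusted p = 8.81e-06). The chaperone Bsg (basigin), which brings MCT1 and MCT4 to the membrane, rose by 0.39 (adjusted p = 0.00186) at an FPKM of 206.9 to 258.9, and the related Emb (embigin) fell from 53.32, 60.33 and 56.35 to 19.53, 22.80 and 21.12 (log2 fold change -1.21). The share of Slc16a3 among the 3 carriers was 53.3% ± 3.59 in control and 84.2% ± 3.46 in APPswe libraries (exact permutation p = 0.1, adjusted 0.114).

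The routes that leave glycolysis can be read against the shares of all genes given above, 8.90% up- and 9.20% down-regulated and, on the adjusted p, 32.5% higher and 31.5% lower. Of 15 genes for the entry of pyruvate into mitochondria, 5 rose and 5 fell on the adjusted p, with a median log2 fold change of 0.0153. Pcx, which carboxylates pyruvate to oxaloacetate, was up-regulated at low levels (FPKM 1.71 ± 0.131 in control and 3.20 ± 0.182 in APPswe libraries, log2 fold change 1.11), a call lost under 4 of the 15 alternatives, with a log2 fold change down to 0.63 in limma at a pseudocount of 1. Pdk2, a kinase that inhibits pyruvate dehydrogenase, was down-regulated (log2 fold change -1.25), and Mpc1, a subunit of the mitochondrial pyruvate carrier and the most abundant of the list, had a log2 fold change of 0.06 (adjusted p = 0.578). Of 18 TCA cycle genes, 12 rose and 4 fell on the adjusted p and 0 passed the fold threshold, with a median of 0.419 and a log2 fold change of 0.89 for Mdh2, malate dehydrogenase. Among 8 pentose phosphate genes 2 rose and 3 fell, with a median of -0.0371 and a log2 fold change of -0.94 for the most abundant, Taldo1 (transaldolase). Among 16 glycogen genes 9 rose and 3 fell, with a median of 0.331 and a log2 fold change of 0.34 for Gaa, the lysosomal glucosidase. Of 5 gluconeogenesis genes, 2 were up-regulated, Pcx again and Fbp1, which had an FPKM of 0.07 to 0.54 in control and 0.55 to 1.19 in APPswe libraries, and 2 fell on the adjusted p. Fbp1 lost its call under 7 of 14 alternatives. G6pc3, the ubiquitous glucose-6-phosphatase, had a log2 fold change of 0.09 (adjusted p = 0.216).

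Hif1a was up-regulated. Its FPKM was 26.23, 31.74 and 32.76 in control and 61.13, 54.92 and 59.05 in APPswe libraries. Control replicate 1 was the lowest of its group, and the genotypes were well apart. The log2 fold change was 1.16 (SE 0.0874, adjusted p = 7.92e-06), or 2.23-fold. Epas1, which encodes the related HIF-2 alpha subunit, had an FPKM of 5.16, 4.33 and 4.99 in control and 3.07, 3.15 and 3.17 in APPswe libraries and fell (log2 fold change -0.41, adjusted p = 0.00229). The log2 ratio of Hif1a to Epas1 was 2.64 ± 0.271 in control and 4.22 ± 0.0958 in APPswe libraries, without overlap (exact permutation p = 0.1).

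Of the other 15 HIF subunits and oxygen-sensing genes, all tested, 8 rose and 2 fell on the adjusted p (32.5% and 31.5% of all genes), and 2 were up-regulated and 0 down-regulated (8.90% and 9.20% of all genes), with a median log2 fold change of 0.487. Egln2, an HIF prolyl hydroxylase, was up-regulated from 34.40, 29.24 and 30.91 to 66.93, 71.02 and 67.95 FPKM (log2 fold change 1.35). Egln1, the main HIF prolyl hydroxylase in many cells and itself an HIF target, fell (log2 fold change -0.53, adjusted p = 0.00259) and was named after its value was seen. Elob, a subunit of the Vhl ubiquitin ligase and the most abundant of the list, rose by 0.49 (adjusted p = 0.00143). Hif3a, which encodes a further alpha subunit, was up-regulated from 3 counts over the control libraries, all of them in replicate 1, to 273 counts over the APPswe libraries, a ratio per total count of 81.5 with an exact 95% counting interval of 27.6 to 398. Its fitted log2 fold change ranged from 0.67 to 9.53 over the alternatives, the latter without control replicate 1, and its FPKM stayed below 1 in every library.

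HIF targets outside glycolysis held genes that rose and genes that fell, as did all genes tested. Of 34 tested, 16 rose and 12 fell on the adjusted p, where 32.5% of all genes rose and 31.5% fell. By the fold threshold 7 were up-regulated and 5 down-regulated, where 8.90% and 9.20% of all genes were, and the median log2 fold change was 0.310. Ndrg1, a stress-responsive gene, had an FPKM of 15.74, 18.32 and 17.36 in control and 315.8, 611.3 and 460.1 in APPswe libraries (log2 fold change 4.96). Every APPswe library was far above control, and the APPswe libraries also differed widely among themselves. Nos2, the inducible nitric oxide synthase of activated macrophages, had an FPKM of 0.03 to 0.12 in control and 1.69 to 2.12 in APPswe libraries. It had 2 to 9 counts per control library, so its log2 fold change of 5.02 is imprecise, with a range of 1.46 to 5.61 over the alternatives. Edn1 (endothelin 1) had an FPKM of 0.66 to 1.33 and 4.50 to 5.49 (log2 fold change 2.52). Lox, Adm, Ero1l and Ak4, named after their values were seen, were the others up-regulated, the first 3 with log2 fold changes of 1.81, 1.30 and 1.28 and Ak4 at an FPKM of 0.61 to 0.69 in control and 0.97 to 1.48 in APPswe libraries. Hmox1, the haem oxygenase and the most abundant of the list, rose by 0.73 (adjusted p = 8.03e-06).

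Among the HIF targets that fell were well-known ones. Vegfa, the angiogenic growth factor, had an FPKM of 38.02, 23.25 and 28.65 in control and 9.54, 9.57 and 9.42 in APPswe libraries (log2 fold change -1.43). Cxcr4, a chemokine receptor, fell from 172.7, 217.4 and 204.1 to 20.71, 27.84 and 24.66 (log2 fold change -2.81), and Mxi1, an antagonist of Myc, from 16.90 to 20.57 down to 4.40 to 5.30 (log2 fold change -1.65). Angptl4, named after its values were seen, had a log2 fold change of -1.31.

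**Figure D4:**
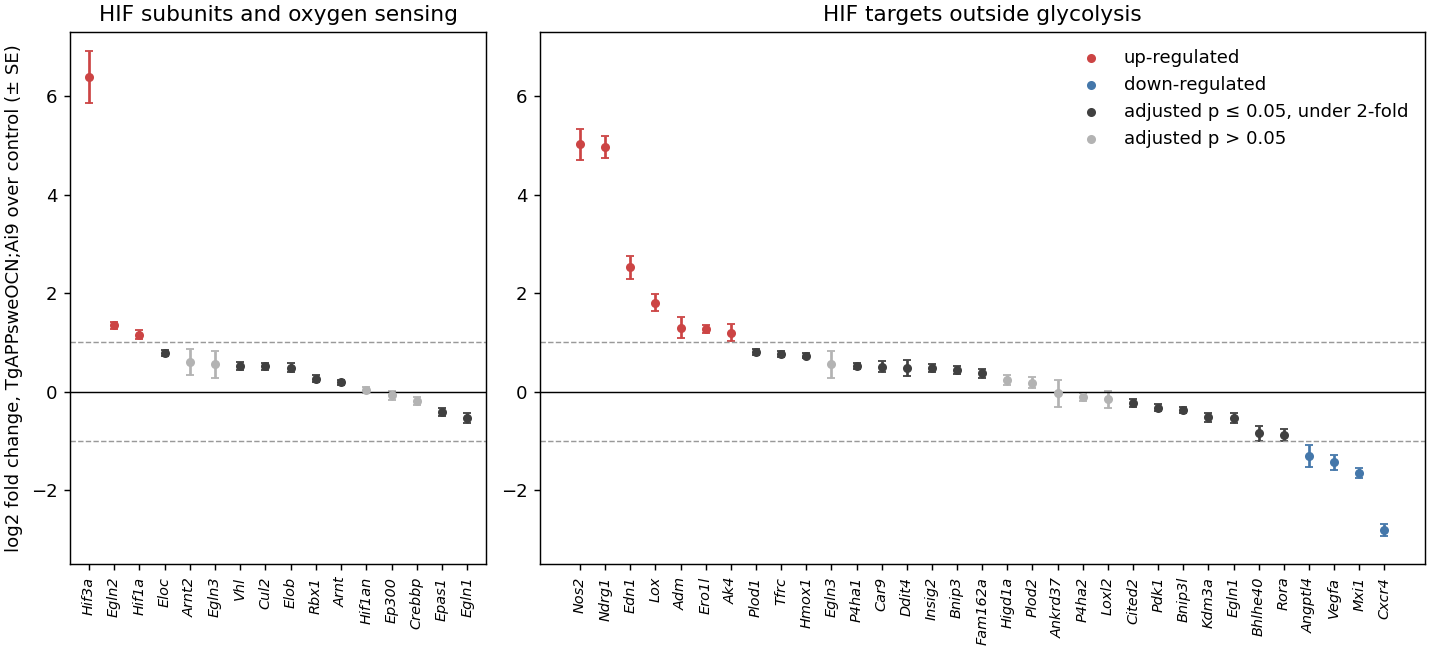
Log2 fold change (APPswe over control, edgeR with TMM scaling, ± SE, n = 3 libraries each) of HIF subunits and oxygen-sensing genes with Hif1a (left) and of HIF targets outside glycolysis (right), ordered by value; red and blue mark up- and down-regulated genes, dark grey those past the adjusted p alone and light grey those that were not, and dashed lines mark the fold threshold. Targets span from 5.02 for Nos2 to -2.81 for Cxcr4; the value of Hif3a rests on 3 control counts.

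Within the APPswe group, the genes did not all vary alike. For 6 of the 10 genes (Hif1a, Slc2a1, Hk3, Pgk1, Ldha and Slc16a3) APPswe replicate 1 had the highest and replicate 2 the lowest FPKM, an order that 20.4% of the genes tested had. Pfkfb3 had the reverse order, as 30.9% of the genes tested did. Of the 15 myeloid markers, 7 had the order of the 6 genes. Their summed FPKM had it too, at 19341, 15545 and 16819 in APPswe replicates 1, 2 and 3, but not without Lyz2 (10617, 10166 and 9989), nor did their median (486, 508 and 472). Of the 6 osteoclast markers tested, Mmp9 and Acp5 had it and the others did not. Among the stromal markers, Col1a1, Col1a2, Col3a1 and Cxcl12 had the order of Pfkfb3, Postn had that of the 6 genes, and Runx2 had neither. The part of all these markers in the order of the 6 genes or of Pfkfb3 was not tested. Markers of proliferation separated the genotypes. All 8 fell on the adjusted p, 5 of them past the fold threshold, against 31.5% and 9.20% of all genes tested. Their summed FPKM was 350.5 to 396.6 in control and 187.8 to 200.02 in APPswe libraries. The part of the proliferation markers in the results above was not tested.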

How the data were processed

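RNA-seq was measured in sorted tdTomato+ cells, 3 libraries per genotype. Per the labels, HISAT2 2.0.4, Bowtie2 2.2.5, RSEM 1.2.12 and DESeq2 1.4.5 and the build mm10 stand in the submitters' processing notes; the annotation is not given in the sources used here. The authors deposited estimated counts per gene, fractional for 13.3% to 14.4% of genes, and FPKM. A further table with the authors' log2 ratio and p-value was not used. After rounding of the estimated counts, genotypes were compared with edgeR 4.0.16 in R 4.3.3 (filterByExpr, TMM, quasi-likelihood test, no covariates), and p-values were adjusted by Benjamini-Hochberg over all 12701 genes. With 3 counts taken as the lowest detectable level, the floor was 0.136 to 0.155 CPM per library, for counting error only. The biological coefficient of variation was 9.85%. Isoform shares and log2 ratios used FPKM with two-sided exact permutation tests. Alternatives were DESeq2 1.42.0, limma 3.58.1 on log2 FPKM (pseudocount 1 or 0.1), other scalings and filters, a replicate block, and leaving out each library. Scripts were tested on simulated data. The 10 genes and the pathway and marker lists were chosen with earlier results of these data known. Named besides the 10 genes are, per pathway list, up to 3 called rises and falls and the gene with the highest mean FPKM, the isoforms paired with them, and App. Other genes, cell type markers included, were named after their values were seen. Python 3.11.15, pandas 2.3.3, scipy 1.17.1 and matplotlib 3.10.9 were used. Promoters are from RefSeq (GRCm38.p6). A gene of the HIF target list is counted with it but not reported here by itself.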

Additional observations from a re-analysis of the deposited data

How the results depend on the processing

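Under the 15 alternatives, the number of the 10 genes that rose on the adjusted p stayed at 8 except without APPswe replicate 2 (9), and none was called lower in any. The up-regulated genes were 6 to 7 when a library was left out, 3 with library size only, 2 with limma at either pseudocount, and 6 under the others. Genes of the pathway lists called lower were 11, but 17 with library size only, and those called higher were 13, but 8 with limma and a pseudocount of 1. With library size only Hif1a and Hk3 had a log2 fold change of 0.94 and Pgk1 of 0.97, and that scaling moved the median of all genes tested to -0.234. Directions turned for genes near 0; the cause was not tested. With library size only, limma at a pseudocount of 0.1 and limma at 1, the log2 fold changes were -0.0857, -0.0917 and -0.0893 for Hk1, -0.0329, -0.0322 and -0.0321 for Gpi1, -0.123, -0.121 and -0.118 for G6pc3, and -0.152, -0.0868 and -0.0851 for Mpc1. With upper-quartile factors they were -0.0157 for Hk1, -0.0646 for Pfkp, -0.0535 for G6pc3 and -0.0816 for Mpc1, and Pfkp had -0.135 with library size only. Slc16a1 had 0.00777 with DESeq2 and with RLE factors. With single libraries left out, Slc16a1 ranged from -0.105 to 0.0712, Pfkfb1 from -0.219 to 0.106 (without APPswe replicate 1) and Mpc1 from -0.0166 (without control replicate 2) to 0.144. Same-numbered libraries showed little shared deviation (correlations of 0.0127, 0.0066 and 0.141). With 3 libraries per genotype this cannot settle whether the numbers pair the samples. With the replicate block 6 genes were up-regulated and 8 passed the adjusted p, and over all genes 1115 were up- and 1147 down-regulated, against 1130 and 1169. With 3 libraries per genotype, isoform shares and ratios could not reach an exact p below 0.1.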
